A study of Mus musculus with 36 samples.

Results

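Chromatin accessibility was compared between mouse cells 7 days into direct cardiac reprogramming and control fibroblasts harvested at the same time, with ATAC-seq, an assay whose transposase cuts and tags DNA where chromatin is open. The comparison takes the 3 libraries labelled as day 7 GMT with inhibitors and the 3 control fibroblast libraries, 6 of the 18 libraries with a column in the deposited table, and every region that passed a filter on low counts: 144810 of 1393120 regions. These tested regions are called peaks here. All libraries came from neonatal hearts of Cd-1 mice with the alpha-MHC-GFP transgene, a reporter driven by the promoter of the cardiac myosin gene Myh6. Explant cultures gave cells sorted as positive for Thy1 and negative for GFP, which the labels call largely fibroblasts. The day 7 cells were infected with retroviruses for Gata4, Mef2c and Tbx5 (GMT), received sb431542 and xav939, and were sorted for GFP. The control cells were infected with a retrovirus for the red fluorescent protein dsRed, were given no inhibitor, and were sorted by dsRed. The factors, both inhibitors and the sort on the reporter therefore differ together between the groups and cannot be told apart here, whereas the day is matched. The labels state 3 biological replicates per condition, without saying which animals or cultures each came from.

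Fibroblasts of the heart build and remodel the extracellular matrix around the muscle. Direct reprogramming turns them toward muscle without a stem cell stage: Gata4, Mef2c and Tbx5 are transcription factors of heart development that bind regulatory DNA of sarcomere, ion handling and other muscle genes. sb431542 blocks the receptor kinase of TGF-beta, a growth factor that drives matrix production, and xav939 blocks Wnt signalling by stabilizing Axin. Accessible DNA marks promoters and enhancers that can be bound, but a change in accessibility is not a change in expression, which was not measured in these libraries.

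The 6 libraries held 2340360 to 17334973 counts over the part of the genome in the table (chromosomes 1, 10 to 16 and part of 17, build mm9). A single region of chromosome 1, chr1:24618407-24622986, took 49.4, 49.3 and 14.5% of the fibroblast libraries and 23.8, 32.9 and 24.9% of the day 7 libraries. Without that region, the tested peaks held 64.2 to 71.1% of fibroblast counts and 74.0 to 79.4% of day 7 counts, so the share of reads in peaks moved with the groups, and its part in the results below was not tested. Fibroblast libraries 1 and 2 lay closer to each other (chi-square per degree of freedom 1.38) than to library 3 (17.8 and 24.3), yet differed beyond sampling noise and were counted separately. That measure includes the single region with its unequal shares, and gave 9.05, 13.2 and 10.1 for fibroblast library 3 against day 7 libraries 1, 2 and 3. Correlations of log2 levels were 0.919 between fibroblast libraries 1 and 2, and 0.885 and 0.865 between these and library 3. Fibroblast library 3 correlated at 0.708 to 0.737 with the day 7 libraries. The labels name 2 sequencing cores without assigning libraries to them, so a core cannot be told apart from a group. Levels below are counts per 1000000 (CPM) of the effective library size, which is the library total scaled by trimmed means of log ratios (TMM).

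The promoters shown here belong to 2 genes whose surroundings rose and 2 whose surroundings fell at day 7. They were chosen after those values were seen. Each is the 300 bases from 250 before to 50 after the RefSeq transcription start (assembly GRCm38.p6), read 5′ to 3′ along the gene. Capitals mark matches on either strand to any of 6 motifs: GATA factors (AGATAA, the form AGATAG, the form TGATAA or the form TGATAG), AP-1 (TGANTCA), T-box factors (GGTGTGA), TEAD factors (GGAATG), and the MEF2 consensus and the CArG box, given by name. No capitals of these 4 promoters came from AP-1, the T-box motif, the MEF2 consensus or the CArG box, and no matches overlapped.
Myh6 (minus strand): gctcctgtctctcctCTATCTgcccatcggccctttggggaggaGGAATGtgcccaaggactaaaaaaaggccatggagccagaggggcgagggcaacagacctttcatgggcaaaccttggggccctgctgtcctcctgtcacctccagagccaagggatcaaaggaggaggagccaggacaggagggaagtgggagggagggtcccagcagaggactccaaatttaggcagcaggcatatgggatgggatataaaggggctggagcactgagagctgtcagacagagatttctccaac
Myh7 (minus strand): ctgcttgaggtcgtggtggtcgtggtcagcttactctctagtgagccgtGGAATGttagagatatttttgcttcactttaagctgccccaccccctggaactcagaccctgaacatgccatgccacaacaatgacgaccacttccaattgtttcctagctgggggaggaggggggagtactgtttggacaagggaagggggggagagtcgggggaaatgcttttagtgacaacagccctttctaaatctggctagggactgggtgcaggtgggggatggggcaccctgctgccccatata
Col3a1 (plus strand): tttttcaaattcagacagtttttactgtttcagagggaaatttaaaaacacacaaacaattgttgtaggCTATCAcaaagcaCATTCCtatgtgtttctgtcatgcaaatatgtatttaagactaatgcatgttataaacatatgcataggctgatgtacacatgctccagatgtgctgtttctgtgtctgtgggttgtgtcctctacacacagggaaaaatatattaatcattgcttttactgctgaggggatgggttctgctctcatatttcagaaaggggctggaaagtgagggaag
Timp3 (plus strand): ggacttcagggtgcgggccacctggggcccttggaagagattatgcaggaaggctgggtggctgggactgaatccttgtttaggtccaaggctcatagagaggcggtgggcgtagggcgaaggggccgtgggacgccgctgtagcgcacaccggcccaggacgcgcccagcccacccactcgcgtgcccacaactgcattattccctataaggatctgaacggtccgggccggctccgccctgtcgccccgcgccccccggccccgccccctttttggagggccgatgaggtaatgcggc

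Myh6 and Myh7 encode the alpha and beta heavy chains of cardiac myosin, Col3a1 a fibrillar collagen of loose connective tissue, and Timp3 an inhibitor of matrix metalloproteinases. The Myh6 promoter held 1 GATA match and 1 TEAD match, and so did that of Col3a1, a gene that fell. The Myh7 promoter, the first of 2 listed, held 1 TEAD match and no GATA match. That of Timp3 held no match, which says only that these letters are not in this window. Over all 32851 promoters of the same length, 29.8% held a GATA match, 14.7% a TEAD match, 7.81% an AP-1 match, 3.98% a T-box match, 3.19% the MEF2 consensus and 1.63% a CArG box. The matches are a description of the letters, not of binding.

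At day 7, 39820 of 144810 peaks differed from fibroblasts (27.5%, edgeR quasi-likelihood test, two-sided, Benjamini-Hochberg adjusted p under 0.05 over all peaks). In these bulk samples, fewer cells with an open region and less opening per cell cannot be told apart. Of the called peaks, 22511 were higher at day 7 (15.5% of all peaks) and 17309 were lower (12.0%). The median log2 fold change was 1.75 among peaks called higher (quartiles 1.31 and 2.33) and -1.58 among peaks called lower (quartiles -1.99 and -1.27). A fold of at least 4 was reached by 8442 of the higher peaks (37.5%) and 4233 of the lower ones (24.5%). All 3 day 7 libraries lay above all 3 fibroblast libraries in 21377 of the peaks called higher (95.0%), where 24.0% of all peaks did so. They lay below in 15688 of the peaks called lower (90.6%), against 19.0% of all peaks. The median level of peaks called higher was 1.22 CPM in fibroblasts, near the 1.47 CPM of all peaks, and 4.53 CPM at day 7. Peaks called lower had medians of 3.30 CPM in fibroblasts and 1.01 CPM at day 7. The excess of rises over falls was not stable: limma voom called 19877 higher and 19834 lower peaks, 50.1% of calls higher against 56.5%.

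**Figure D1:**
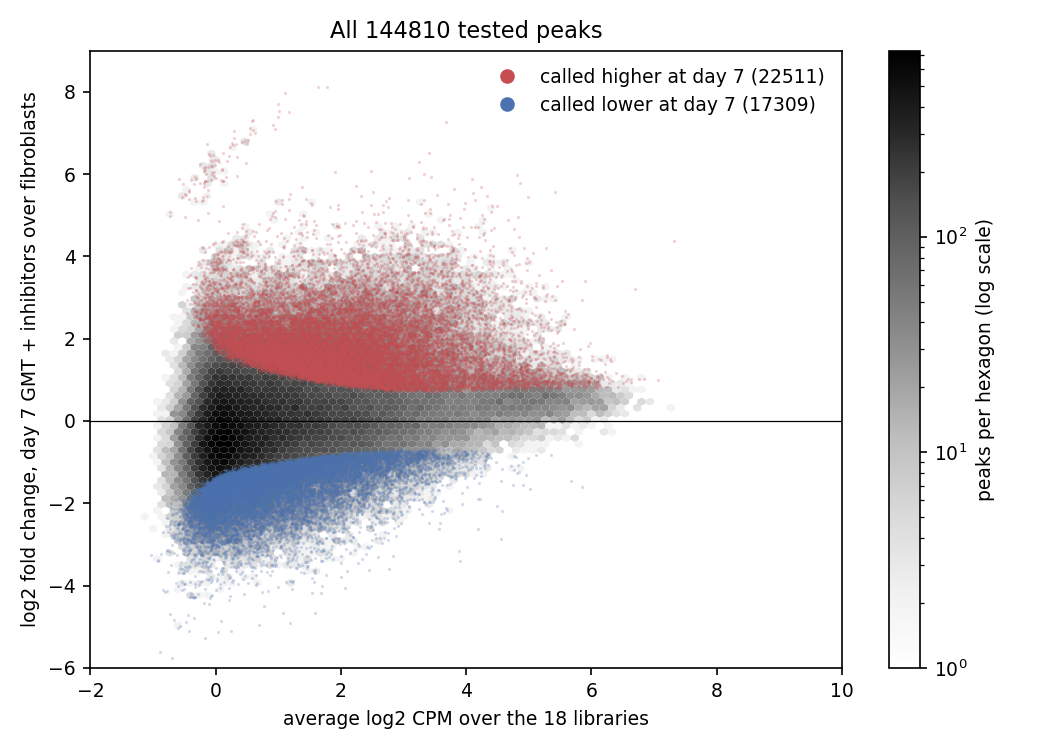
Log2 fold change of day 7 GMT with inhibitors over fibroblasts against the average log2 CPM over the 18 libraries for every tested peak; grey hexagons count all peaks on a log scale, red points are called higher (22511) and blue points called lower (17309). Called rises reach further from 0 than called falls, and the cloud drifts above 0 at high levels.

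Under the TMM scaling, the balance of rises and falls differed with the level of a peak. Levels were averaged over the 18 libraries, of which 3 are fibroblasts, so peaks high in treated cells tend toward the higher classes by construction. Among peaks averaging under 1 CPM over the 18 libraries, 2.07% were called higher and 10.2% lower. Among those at 8 CPM or more, 36.8% were called higher and 4.78% lower, and the median log2 fold change of the class was 0.58 against -0.47 in the weakest class. Offsets that take out a trend of the fold change with level gave 19087 higher and 18569 lower peaks, 50.7% of calls higher. Chromosome 11 had the highest share of peaks called higher (19.3%, against 13.7% on chromosome 14, the lowest), and chromosome 1 the highest share called lower (14.0%). Scaling by library totals alone, in which the single region of chromosome 1 counts, gave 25859 higher and 8085 lower peaks, 76.2% of calls higher, and a median log2 fold change over all peaks of 0.30 in place of 0.01. Without fibroblast library 1, the deepest control, 14954 peaks were called higher and 10764 lower.

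The 10 largest rises were peaks almost closed in fibroblasts. They were taken among peaks whose groups did not overlap and whose average log2 CPM over the 18 libraries was 1 or more. Since 3 of the 18 are fibroblasts, a peak almost closed in fibroblasts passes that limit through the treated libraries. The low fibroblast level follows in part from the pick by largest fold change. No fibroblast count was found in 94 of the 22511 peaks called higher and in 99 of all 144810. Of the 10 largest rises, 5 had no count in any fibroblast library. The first, chr11:57780029-57780707, held 0 counts in fibroblasts and 35, 23 and 61 counts (2.31, 2.63 and 6.07 CPM) at day 7, at least 21.1-fold higher than a floor of 3 counts over the fibroblast group. The second, chr1:163043787-163045464, likewise went from 0 to 51, 35 and 35 counts, at least 21.5-fold higher over the same floor. The other three with no fibroblast count, chr14:62508227-62509271, chr11:54332748-54333168 and chr1:88476595-88477346, were at least 19.9, 13.8 and 14.0-fold higher. Bounds and intervals of this kind use counts summed over the libraries of a group. They allow at most for counting error and leave out the spread between libraries. These reads also carry no molecular identifiers.

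Of the rises with some fibroblast signal, chr12:8390481-8391254 was the strongest: 2 counts in all 3 fibroblast libraries together and 654 at day 7, where it reached 20.0, 17.2 and 19.9 CPM, a ratio of 174 with a 95% counting interval from 48.0 to 1439 (log2 fold change 7.26 ± 0.64 SE, adjusted p = 8.0e-13). A peak at chr11:75373171-75374254 held 0.182, 0.231 and 0 CPM in fibroblasts and 18.4, 14.7 and 15.4 CPM at day 7, a ratio of 99.6 with an interval from 33.9 to 485 (log2 fold change 6.51 ± 0.55 SE, adjusted p = 3.3e-14). In both, every day 7 library stood far above every fibroblast library, where the rule of choice required groups without overlap. The other three rises, chr15:99713938-99715325, chr17:25554895-25556012 and chr11:62536238-62537792, had ratios of 80.7 (27.4 to 393), 72.6 (19.9 to 603) and 78.7 (13.9 to 3130.0). The intervals are exact and conditional on the summed counts of both groups.

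The 10 largest falls had means of 10.3 to 14.9 CPM in fibroblasts and under 1 CPM on average at day 7. They were picked by the same rule as the rises, among peaks whose groups did not overlap. The limit on the average level was taken over the 18 libraries, of which 3 are fibroblasts. A peak low in the others passes it only when high in fibroblasts, so that high level follows in part from the pick. At chr1:71667380-71668440, in the known span of the fibronectin gene Fn1, fibroblasts held 9.12, 11.3 and 11.2 CPM and day 7 cells 0, 0.685 and 0.497 CPM (log2 fold change -4.90 ± 0.47 SE, adjusted p = 1.4e-12). A second of the 10, chr1:71638743-71640603, lies in the same gene, with 12.1, 11.1 and 15.9 CPM in fibroblasts and 0.462, 1.60 and 0.199 CPM at day 7. Outside it, chr1:57879514-57880806 held 7.75, 8.33 and 15.1 CPM in fibroblasts and 0.462, 0.228 and 0.398 CPM at day 7 (log2 fold change -4.67 ± 0.42 SE, adjusted p = 2.1e-13), and chr1:151954712-151957204 held 12.0, 11.8 and 20.9 CPM in fibroblasts and 0.528, 0.685 and 0.497 CPM at day 7 (log2 fold change -4.66 ± 0.38 SE, adjusted p = 1.4e-14). That the groups did not overlap in these peaks follows from the rule of choice. The peak chr10:85803917-85805438, 19.2, 13.4 and 9.73 against 0.792, 0.914 and 0.995 CPM, lies in or near Timp3 as described below. The remaining falls, chr12:41816290-41817379, chr11:28112585-28114344, chr17:73299290-73300214, chr17:42716866-42718174 and chr15:68959443-68960958, ranged from -3.92 to -4.19 in log2 fold change.

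**Figure D2:**
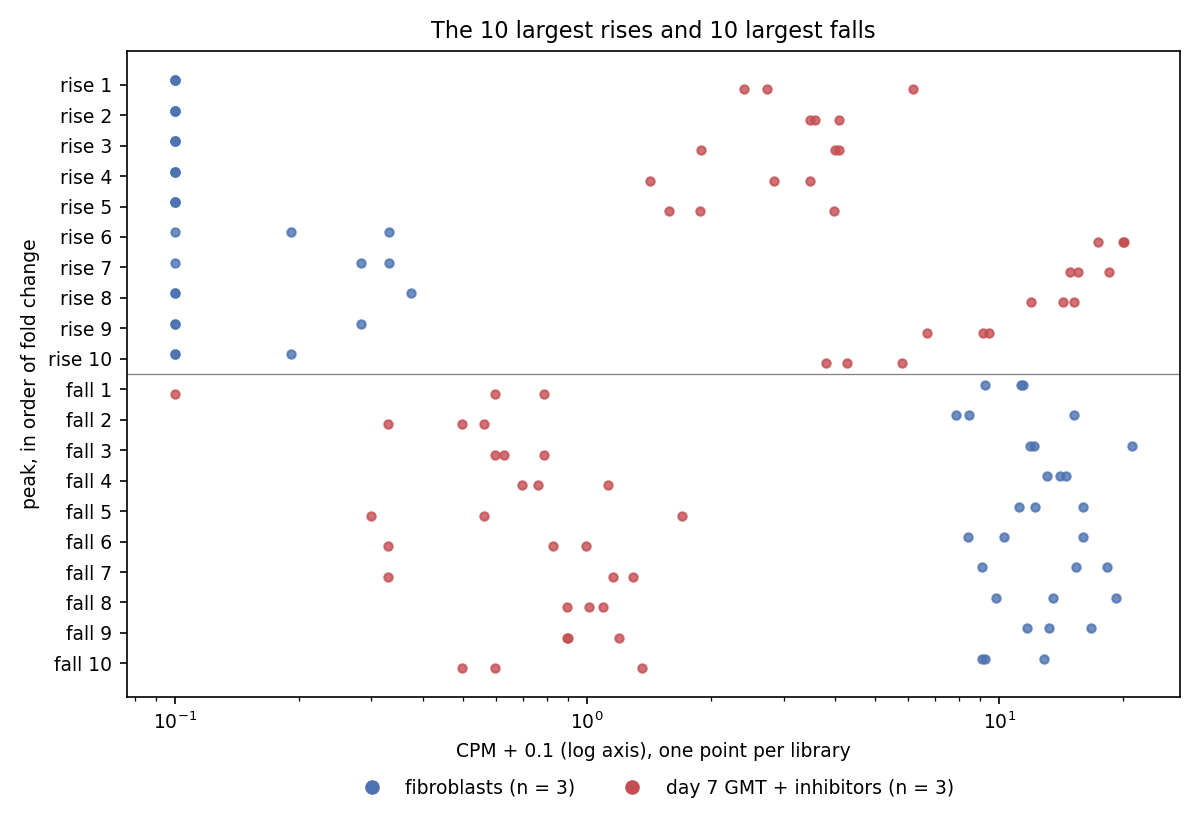
CPM plus 0.1 on a log axis in each of the 6 libraries for the 10 largest rises and the 10 largest falls, in order of fitted fold change; blue points are fibroblasts and red points day 7 cells, 3 per group. By the rule of choice no peak has overlapping groups, and 5 of the rises sit at 0 counts in all fibroblast libraries.

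Changed peaks lay in groups along the chromosome. Where the next peak was within 10000 bases, it was called higher in 28.4% of cases after a peak called higher and in 15.1% after an uncalled peak. After a peak called lower the next was called lower in 19.9% of cases, against 11.2% after an uncalled peak. Opposite neighbours were rarer: a lower peak followed a higher one in 7.11% of cases. Unbroken runs of at least 5 neighbouring peaks called the same way numbered 187 for rises and 54 for falls. Neighbouring peaks can be parts of one open stretch, so they are not independent.

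The longest run of falls held 33 peaks over 51.4 kb at chr1:71625818-71677167, in the known span of Fn1. Its peaks summed to 335, 319 and 384 CPM in the fibroblast libraries and 46.1, 64.1 and 46.3 CPM at day 7. The longest run of rises held 19 peaks over 47.7 kb at chr15:57999654-58047328, with sums of 40.2, 45.3 and 49.0 CPM in fibroblasts and 153, 141 and 186 CPM at day 7. All 3 day 7 libraries were on one side of the fibroblasts in both runs. Further runs of rises lay at chr13:11691775-11725953, chr13:12067293-12095219 and chr13:12018931-12047145, all near or in the calcium channel gene Ryr2, and at chr16:38591567-38616637. Further runs of falls lay at chr16:65844284-65878254 and chr17:73295822-73320715, and at chr10:85803917-85829394 and chr10:85777422-85800643 in or near Timp3.

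Summing every region of the table over windows of 100000 bases gave 10668 windows, of which 1903 were higher at day 7 (17.8%) and 3840 lower (36.0%). The median window had a log2 fold change of -0.20, so window and locus values below are best read relative to it. The largest rise among windows with at least 10 tested peaks was chr13:11800001-11900000, in Ryr2, with 74.5, 62.0 and 60.9 CPM in fibroblasts and 289.6, 231 and 234 CPM at day 7 (log2 fold change 1.93 ± 0.21 SE, adjusted p = 9.9e-07), and 36 of its 45 tested peaks were called higher and 0 lower. A second window of Ryr2, chr13:12000001-12100000, and the window of the troponin gene Tnnt2, chr1:137700001-137800000, were also among the 5 largest, with log2 fold changes of 1.88 and 1.88. The other two, chr11:86700001-86800000 and chr12:81100001-81200000, had log2 fold changes of 1.89 and 1.82.

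Among windows that fell, chr10:85800001-85900000 lay in or near Timp3. It held 305, 270.4 and 279 CPM in fibroblasts and 97.4, 86.0 and 84.0 CPM at day 7. Its log2 fold change was -1.68 ± 0.13 SE (edgeR, adjusted p = 3.2e-08), with 20 of 28 tested peaks called lower and 1 higher. The window of Col3a1 and Col5a2, chr1:45400001-45500000, held 172, 165 and 157 CPM in fibroblasts and 48.7, 54.8 and 53.1 CPM at day 7 (log2 fold change -1.66 ± 0.13 SE, adjusted p = 3.2e-08). That of Fn1, which starts at base 71600001 of chromosome 1, held 492, 492 and 567 CPM in fibroblasts and 175, 189 and 161 CPM at day 7 (log2 fold change -1.56 ± 0.21 SE, adjusted p = 1.5e-05). These 3 windows each belong to genes of the extracellular matrix by known position. The other falls, chr10:99800001-99900000 and chr1:190000001-190100000, had log2 fold changes of -1.38 and -1.34. The counts of windows moved with single libraries: without fibroblast library 1 they were 1139 higher and 1680 lower, and the lower windows numbered 2496 without fibroblast library 2 and 2097 without day 7 library 3. With library totals alone as the scale, 567 were higher and 65 lower, and their median moved to -0.02, so the excess of lower windows did not hold under that scaling.

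Genes were placed on the table by mm9 positions taken from general knowledge, rounded, since no mm9 annotation was used here. The spacing of the genes, or of their promoters and strong peaks, was checked against RefSeq distances for 62 of 64 listed genes. A locus is the known gene interval with 20000 bases on either side. A peak in it may belong to another gene, and some loci overlap, so lists were counted over distinct peaks. Of the 62 loci, 26 had a higher summed level at day 7 and 9 a lower one, in the same fit as the windows. With library totals alone as the scale, 17 were higher and 5 lower: Tnni1, Tnnc1, Pln, Pkp2, Igfbp2, Mb, Myh11, Pecam1, Krt18, Gja1, Dcn, Lum and Adgre1 lost their calls, none with a change of sign. The genes and lists were chosen with earlier results of these data known, so list counts are a description.

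**Figure D3:**
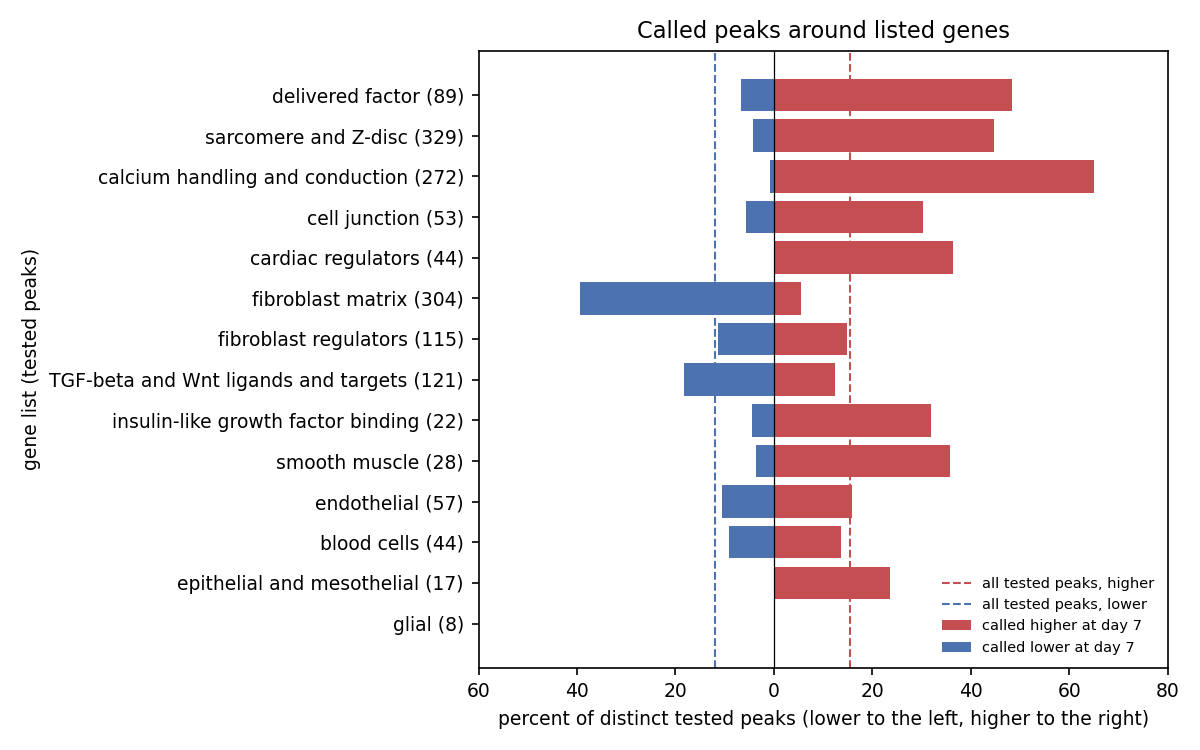
Percent of distinct tested peaks called higher (red, to the right) and lower (blue, to the left) around the genes of each list, with the number of tested peaks in brackets; dashed lines mark the same shares over all tested peaks. Sarcomere, calcium handling and delivered factor loci stand to the right, and the fibroblast matrix list to the left.

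Sarcomere and Z-disc genes, which build the contractile apparatus, gained accessibility at day 7. Around the 14 genes of that list, 147 of 329 distinct tested peaks were called higher (44.7%) and 14 lower (4.26%), with a median log2 fold change of 0.99. Of all peaks, 15.5% were called higher and 12.0% lower. The median over all peaks was 0.01. The summed level of the list was 1361, 1405 and 1332 CPM in the fibroblast libraries and 2746, 3067 and 2699.7 CPM at day 7, so the groups did not overlap. In the fit of windows and loci, 13 of 14 loci rose and 0 fell, beside 17.8% of windows higher and 36.0% lower.

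A single peak, chr14:55584482-55587987 at the known 5′ end of Myh6, made up most of the day 7 level of that locus. It held 13.2, 14.3 and 10.1 CPM in fibroblasts and 279, 244 and 260.1 CPM at day 7 (log2 fold change 4.36 ± 0.42 SE, adjusted p = 1.4e-12), and every day 7 library was at least an order of magnitude above every fibroblast library. The reporter transgene carries the Myh6 promoter and the day 7 cells were sorted on it, and reads of the transgene cannot be told from reads of the gene itself. The Myh6 locus as a whole summed to 66.4, 70.3 and 70.6 CPM in the fibroblast libraries and 376, 339 and 342 CPM at day 7 (log2 fold change 2.35 ± 0.28 SE, adjusted p = 3.4e-06). The adjoining Myh7 locus, which shares that peak through its flank, summed to 42.6, 46.5 and 33.2 CPM in the fibroblast libraries and 371, 329.8 and 347 CPM at day 7 (log2 fold change 3.09 ± 0.28 SE, adjusted p = 1.0e-07). Without that peak the sums were 53.2, 56.0 and 60.5 CPM in fibroblasts and 96.5, 95.0 and 81.9 CPM at day 7 for Myh6 (log2 fold change 0.70, adjusted p = 0.007), and 29.4, 32.2 and 23.1 and 91.3, 85.9 and 87.1 CPM for Myh7 (log2 fold change 1.62, adjusted p = 6.3e-07). Both loci were still called higher without it. Counted over the gene interval alone, with no flank, Myh7 had a log2 fold change of -0.12 and was not called.

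Tnnt2 encodes cardiac troponin T, which links the calcium switch to the thin filament. Its locus summed to 74.7, 81.0 and 72.8 CPM in the fibroblast libraries and 328, 360.0 and 309 CPM at day 7 (log2 fold change 2.12 ± 0.31 SE, adjusted p = 3.7e-05), and 23 of its 31 tested peaks were called higher and 0 lower. The strongest peak there, chr1:137757333-137759512, held 14.1, 13.9 and 15.9 CPM in fibroblasts and 77.1, 57.7 and 71.6 CPM at day 7. The peak with the smallest p, chr1:137734435-137735435, was almost absent from fibroblasts, with 0.912, 0.463 and 0 CPM in fibroblasts and 15.8, 16.7 and 18.4 CPM at day 7 (log2 fold change 4.71 ± 0.42 SE, adjusted p = 1.1e-13). Neither peak had overlapping groups. Tcap, the Z-disc cap of titin, summed to 26.5, 25.7 and 28.1 CPM in the fibroblast libraries and 97.6, 106 and 94.5 CPM at day 7 (log2 fold change 1.90 ± 0.33 SE, adjusted p = 2.9e-04). Ldb3, another Z-disc protein, summed to 204, 203 and 184 CPM in the fibroblast libraries and 425, 575 and 421 CPM at day 7 (log2 fold change 1.27 ± 0.31 SE, adjusted p = 0.0026), although its strongest peak, chr14:35361498-35363220, differed little between groups, with 35.2, 37.0 and 36.4 CPM in fibroblasts and 31.4, 34.8 and 33.4 CPM at day 7 (adjusted p = 0.83).

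The other rises of the list were smaller. The myosin light chain loci Myl4 and Myl7 had log2 fold changes of 1.07 and 0.90, the muscle kinase Speg and the intermediate filament gene Des, whose loci overlap, 1.14 and 1.00, the Z-disc actinin Actn2 0.81 and the oxygen carrier myoglobin, Mb, 0.70. With flanks of 50000 bases the Myl7 call was lost (log2 fold change 0.40, adjusted p = 0.18). In Actn2 a single peak, chr13:12429079-12430762, held 1.64, 0.694 and 0.360 CPM in fibroblasts and 14.3, 19.0 and 13.6 CPM at day 7 (log2 fold change 3.76 ± 0.41 SE, adjusted p = 5.8e-11), while the strongest peak of the locus did not pass the test. Tnni1 and Tnnc1, troponin subunits, had log2 fold changes of 0.60 and 0.51 with adjusted p of 0.027 and 0.047. These 2 calls rested on single libraries: that of Tnni1 was lost without fibroblast library 1 or 2 or day 7 library 1 or 3, and that of Tnnc1 without each of the 6 in turn but fibroblast library 3, with adjusted p up to 0.11 and 0.19 over all alternatives. Vcl, which encodes the adhesion protein vinculin, was the exception: 12 of its 47 tested peaks were called lower and 1 higher, while the locus as a whole was not called (264, 274 and 230.2 CPM in the fibroblast libraries and 181, 229 and 221 CPM at day 7, adjusted p = 0.25). Over the gene interval alone, Vcl was called lower at a log2 fold change of -0.86.

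Calcium handling and conduction loci gained the largest share of peaks, mostly through 1 gene. Around the 3 genes of that list, the median log2 fold change of distinct tested peaks was 1.49. Of these, 177 of 272 were called higher (65.1%) and 2 lower (0.735%), beside 15.5% and 12.0% of all peaks. Ryr2, the channel that releases calcium from the sarcoplasmic reticulum at each beat, supplied 175 of the 177 rises. Of its 245 tested peaks, 175 were called higher and 0 lower. Its locus summed to 460.0, 400.0 and 360.0 CPM in the fibroblast libraries and 1410.4, 1289 and 1180.0 CPM at day 7 (log2 fold change 1.67 ± 0.29 SE, adjusted p = 1.8e-04), with the lowest day 7 library far above the highest fibroblast library. A peak in it, chr13:12125257-12126619, held 1.92, 2.08 and 1.08 CPM in fibroblasts and 19.3, 25.5 and 30.0 CPM at day 7 (log2 fold change 3.79 ± 0.38 SE, adjusted p = 3.8e-12). Pln, the phospholamban gene that restrains the calcium pump, summed to 40.1, 38.9 and 28.1 CPM in the fibroblast libraries and 48.3, 59.3 and 48.9 CPM at day 7 (log2 fold change 0.52, adjusted p = 0.02), a call that was lost without fibroblast library 3 or day 7 library 2 and over the gene interval alone, where the log2 fold change was 0.02. Gja1, which encodes the gap junction protein connexin of both muscle and fibroblasts, was lower at day 7: its strongest peak, chr10:56096099-56099306, held 48.6, 48.4 and 46.5 CPM in fibroblasts and 26.7, 27.8 and 24.9 CPM at day 7 (log2 fold change -0.86 ± 0.29 SE, adjusted p = 0.021).

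Genes of desmosomes, which hold muscle cells together end to end, were less uniform. Around both, 16 of 53 distinct tested peaks were called higher (30.2%) and 3 lower (5.66%), beside 15.5% and 12.0% of all peaks. The median log2 fold change was 0.61. The desmoplakin locus, Dsp, summed to 60.1, 66.2 and 64.1 CPM in the fibroblast libraries and 155, 147 and 197 CPM at day 7 (log2 fold change 1.39 ± 0.18 SE, adjusted p = 8.9e-06), and its strongest peak, chr13:38241964-38244950, held 10.4, 10.9 and 12.97 CPM in fibroblasts and 43.9, 38.4 and 50.5 CPM at day 7. All day 7 libraries stood above all fibroblast libraries. Pkp2, encoding plakophilin, had a log2 fold change of 0.35 (adjusted p = 0.03), a call that was lost without each library in turn but day 7 library 1, and under the RLE and library-total scalings, with adjusted p up to 0.25.

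Of 3 regulators of heart muscle genes that were not delivered by virus, 2 had loci that rose. Around Hand1, Nkx2-5 and Myocd, 16 of 44 distinct tested peaks were called higher (36.4%) and 0 lower (0%). All peaks stood at 15.5% and 12.0%, and the median log2 fold change of the list was 0.75. Nkx2-5, an early cardiac homeobox factor, summed to 18.1, 20.1 and 23.4 CPM in the fibroblast libraries and 47.1, 44.8 and 48.5 CPM at day 7 (log2 fold change 1.21 ± 0.21 SE, adjusted p = 2.0e-04), and its strongest peak, chr17:26997603-26999361, held 4.93, 7.63 and 7.93 CPM in fibroblasts and 23.3, 22.5 and 26.7 CPM at day 7. Myocd, encoding myocardin, a coactivator in cardiac and smooth muscle, summed to 97.0, 86.5 and 81.8 CPM in the fibroblast libraries and 160.4, 185 and 149 CPM at day 7 (log2 fold change 0.89 ± 0.17 SE, adjusted p = 4.8e-04). Its peak chr11:65022340-65024021 held 4.38, 4.16 and 3.60 CPM in fibroblasts and 25.3, 31.5 and 30.2 CPM at day 7, with no overlap between groups. Hand1 was not called (log2 fold change 0.34, adjusted p = 0.15), though its 3 day 7 libraries were all above the fibroblasts.

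Of the 3 delivered factors, Gata4 and Mef2c lie on chromosomes in the table and Tbx5 was not analysed here. At the Gata4 locus, 34 of its 52 tested peaks were called higher and 1 lower, and the sum was 189, 187 and 188 CPM in the fibroblast libraries and 523, 537 and 581 CPM at day 7 (log2 fold change 1.54 ± 0.34 SE, adjusted p = 0.0014). Its strongest peak, chr14:63863359-63867256, held 32.3, 34.9 and 37.5 CPM in fibroblasts and 85.5, 90.9 and 119 CPM at day 7, and the peak with the smallest p, chr14:63855617-63858322, held 4.01, 3.47 and 3.96 CPM in fibroblasts and 21.1, 26.0 and 27.2 CPM at day 7 (log2 fold change 2.68 ± 0.33 SE, adjusted p = 1.7e-09). At the Mef2c locus the sum was not called (189.8, 169.6 and 144 CPM in the fibroblast libraries and 221, 177 and 191 CPM at day 7, adjusted p = 0.43), and 9 of its 37 tested peaks were called higher and 5 lower. Several of the Mef2c peaks that rose were far higher earlier: chr13:83800334-83802523 averaged 2.14 CPM in fibroblasts, 118 at day 2, 69.7 at day 3, 13.9 at day 7 and 5.98 at day 21. Likewise at chr13:83730819-83732353 the same means were 1.71, 85.9, 46.8, 9.08 and 4.29 CPM. Reads from the coding sequence of a delivered retrovirus cannot be told from reads of the gene's own exons, and their part in these values was not tested.

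**Figure D4:**
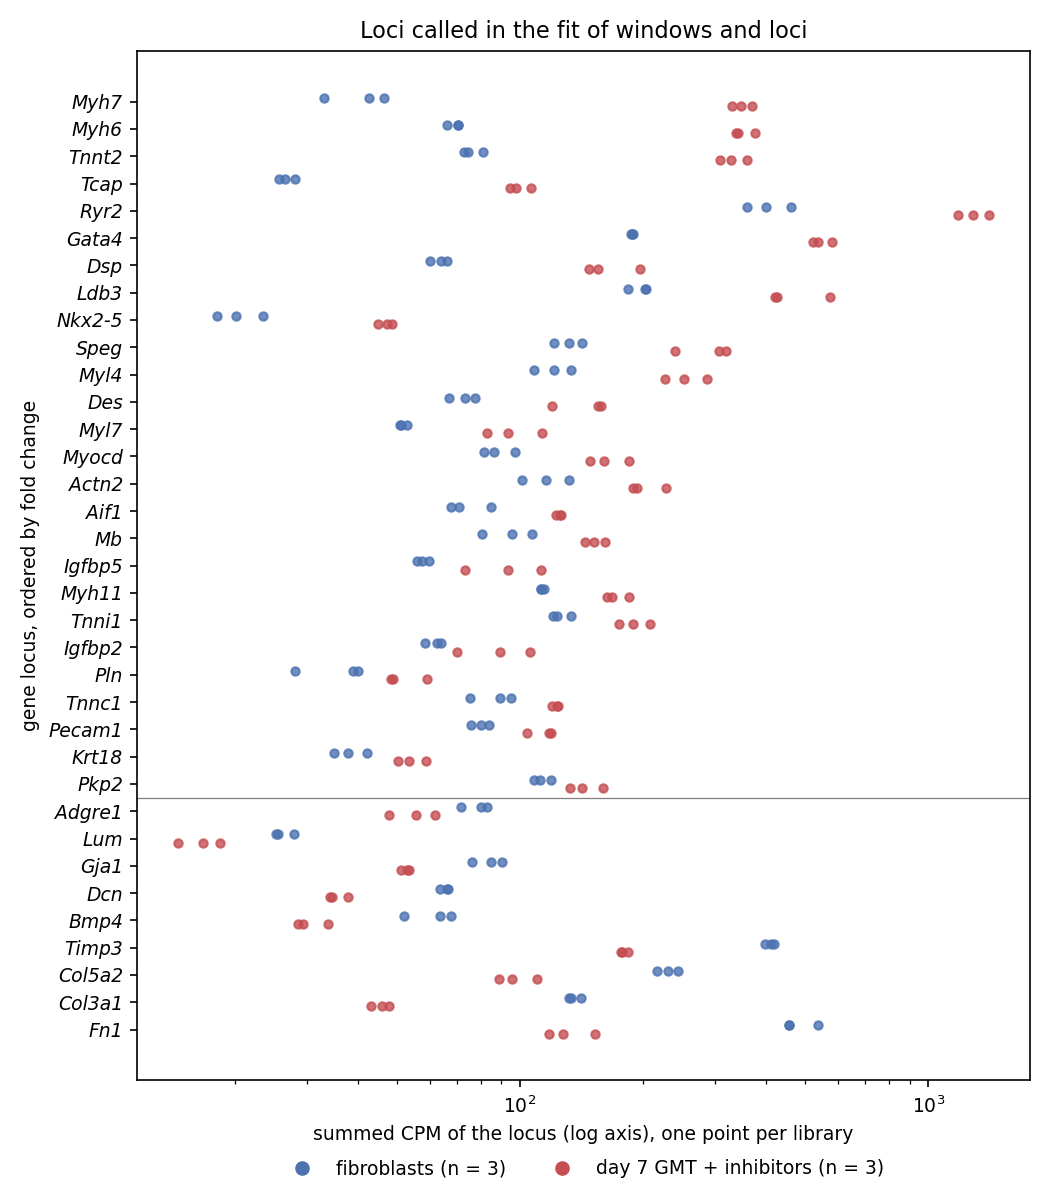
Summed CPM of each locus called in the fit of windows and loci, on a log axis, one point per library (blue fibroblasts, red day 7 cells, 3 each), ordered by fold change. Above the line are the 26 loci that rose, led by Myh7 and Myh6, and below it the 9 that fell, down to Fn1.

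Peaks around genes of the fibroblast matrix were called lower more often than all peaks, but this came from some of the genes. Around the 13 genes of that list, 17 of 304 distinct tested peaks were called higher (5.59%) and 120 lower (39.5%), with a median log2 fold change of -0.68. Over all peaks, 15.5% were called higher and 12.0% lower. The list summed to 2085, 2116 and 2157 CPM in the fibroblast libraries and 1263, 1314 and 1223 CPM at day 7. Among the loci, 6 of 13 fell and 0 rose, beside 36.0% of windows lower and 17.8% higher in the same fit, so the count of loci lay near that background.

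Fn1, which encodes fibronectin, the matrix glycoprotein that anchors fibroblasts, fell furthest. Its locus summed to 457, 455 and 538 CPM in the fibroblast libraries and 127, 152 and 118 CPM at day 7 (log2 fold change -1.87 ± 0.19 SE, adjusted p = 5.4e-07), and 2 of its 53 tested peaks were called higher and 42 lower. The strongest peak, chr1:71625818-71631841, held 75.8, 81.2 and 86.5 CPM in fibroblasts and 9.77, 14.2 and 9.65 CPM at day 7 (log2 fold change -2.86 ± 0.32 SE, adjusted p = 1.2e-10), and chr1:71654390-71656887, the peak with the smallest p, held 27.8, 28.5 and 29.2 CPM in fibroblasts and 2.44, 4.34 and 2.19 CPM at day 7. No fibroblast library came near the day 7 range. Col3a1 summed to 141, 133 and 132 CPM in the fibroblast libraries and 47.9, 43.1 and 46.0 CPM at day 7 (log2 fold change -1.57 ± 0.14 SE, adjusted p = 9.5e-08), with no tested peak called higher and 13 of 23 lower. Of these, chr1:45408145-45409956 held 16.3, 15.7 and 8.65 CPM in fibroblasts and 1.12, 1.48 and 0.796 CPM at day 7 (log2 fold change -3.62 ± 0.35 SE, adjusted p = 1.8e-12). Col5a2, the neighbouring fibrillar collagen gene, summed to 244, 229.7 and 216 CPM in the fibroblast libraries and 95.8, 109.7 and 88.9 CPM at day 7 (log2 fold change -1.23 ± 0.14 SE, adjusted p = 2.7e-06).

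Timp3 fell around the gene but not at its strongest peak. The locus summed to 419, 398 and 411 CPM in the fibroblast libraries and 177, 178 and 184 CPM at day 7 (log2 fold change -1.19 ± 0.17 SE, adjusted p = 3.5e-05), and 28 of its 38 tested peaks were called lower and 2 higher. At chr10:85811699-85816263 the level was 62.8, 46.7 and 62.0 CPM in fibroblasts and 6.54, 6.05 and 3.58 CPM at day 7 (log2 fold change -3.40 ± 0.31 SE, adjusted p = 2.4e-13). The peak with the highest mean level over the 6 libraries, chr10:85762734-85766665, instead rose, with 30.3, 32.2 and 31.7 CPM in fibroblasts and 53.7, 62.1 and 64.7 CPM at day 7 (log2 fold change 0.94 ± 0.31 SE, adjusted p = 0.016). Peaks that moved in opposite directions thus lay within the same locus.

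**Figure D5:**
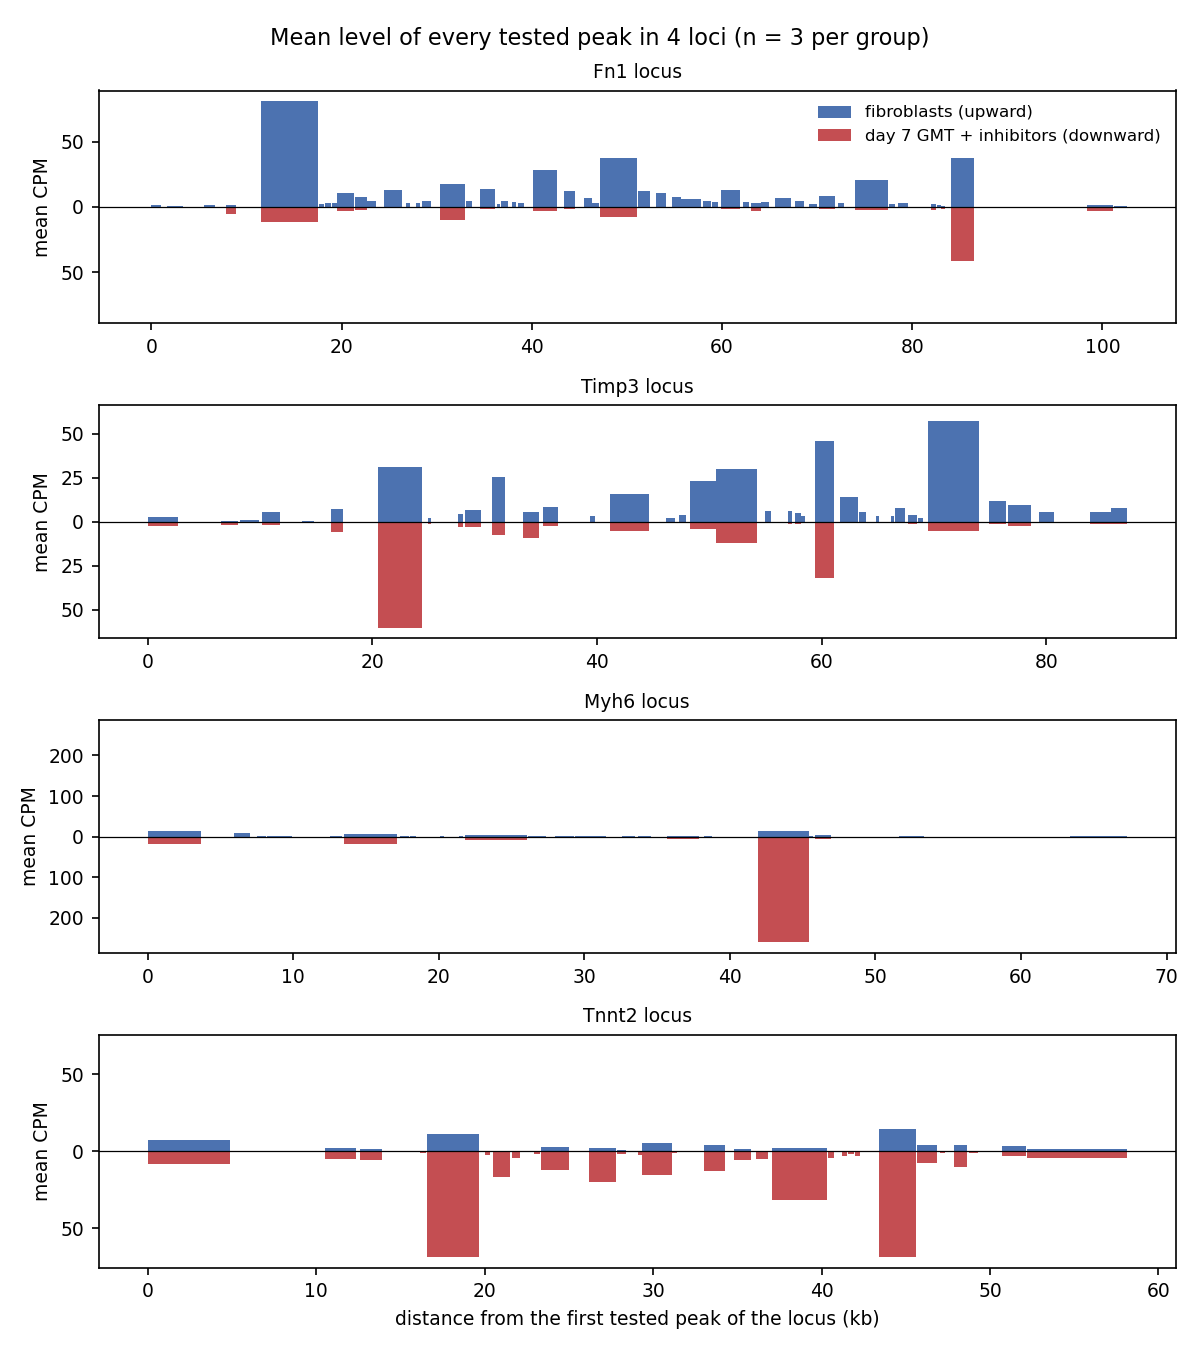
Mean CPM of every tested peak in 4 loci (n = 3 per group), fibroblasts upward in blue and day 7 cells downward in red, against distance in kb from the first tested peak. Fn1 and Timp3 bars are mostly taller in fibroblasts apart from single peaks, while a single day 7 bar dominates Myh6 and day 7 bars are taller across Tnnt2.

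Decorin, Dcn, and lumican, Lum, small proteoglycans that bind collagen, were at log2 fold changes of -0.89 and -0.66 (adjusted p = 4.4e-05 and 0.0061). The Dcn sums were 66.8, 66.4 and 63.8 CPM in the fibroblast libraries and 34.6, 37.8 and 34.2 CPM at day 7. None of the 5 tested peaks of Lum was called on its own. Other matrix genes did not pass the test: Col1a1 held 117, 137 and 149.5 CPM in the fibroblast libraries and 113, 107 and 108 CPM at day 7 (adjusted p = 0.31), and the log2 fold changes of Sparc, Thbs2, Vcan, Col14a1, Col6a1 and Fbln1 were -0.12, -0.26, -0.14, -0.01, -0.09 and 0.06. At Col1a1, the main fibrillar collagen of scars, 7 of 18 tested peaks were called lower all the same. The Col1a1 value depended on the interval: it ran from -0.69 over the gene alone, where it was called, to 0.59 with flanks of 50000 bases, where it was not. It was also called lower in a fit of the 6 libraries alone. Thbs2, which encodes a matricellular thrombospondin, was called in 5 of the alternatives, higher over the gene alone (1.18) and lower in the others (down to -0.37). Sparc, Vcan and Col6a1 were each called in 1 alternative, and Col14a1 and Fbln1 in 0.

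No locus of a transcription factor tied to fibroblast identity passed the test. Around Tcf21, Twist1, Meox1, Runx1 and Runx2, 17 of 115 distinct tested peaks were called higher (14.8%) and 13 lower (11.3%). These shares were near the 15.5% and 12.0% of all peaks, and the median log2 fold change was 0.18. The log2 fold changes of the 5 loci ran from -0.26 for Tcf21 to 0.25 for Runx1. Runx1 was called higher in 1 of the alternatives. Tcf21, a factor of fibroblasts derived from the epicardium, summed to 42.4, 42.8 and 42.5 CPM in the fibroblast libraries and 35.9, 41.6 and 29.4 CPM at day 7 (adjusted p = 0.32).

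The inhibitors act on TGF-beta and Wnt signalling, so ligands and targets of these pathways were read as a list of 9 genes. Around them 15 of 121 distinct tested peaks were called higher (12.4%) and 22 lower (18.2%), beside 15.5% and 12.0% of all peaks. The median log2 fold change was -0.23. A single locus was called: that of Bmp4, a ligand of the TGF-beta family, which summed to 52.0, 63.6 and 67.7 CPM in the fibroblast libraries and 33.9, 29.3 and 28.6 CPM at day 7 (log2 fold change -0.98 ± 0.18 SE, adjusted p = 3.3e-04). Its peak chr14:46979468-46980696 held 3.47, 2.08 and 8.29 CPM in fibroblasts and 0.594, 0.114 and 0.298 CPM at day 7. At Axin2, a feedback target of Wnt signalling, and Edn1, which encodes endothelin, peaks moved both ways: at Axin2 3 of 13 tested peaks were called higher and 4 lower, and at Edn1 5 of 9 were called higher and 1 lower. The peaks with the smallest p there were chr11:108787536-108791315, with 2.46, 2.78 and 3.24 CPM in fibroblasts and 14.9, 16.8 and 17.4 CPM at day 7, and chr13:42393570-42394615, with 2.10, 2.78 and 0.721 CPM in fibroblasts and 9.70, 15.3 and 7.76 CPM at day 7. Ccn2 and Tgfbi, targets of TGF-beta, and the ligand gene Tgfb2 were not called, at -0.08, 0.02 and -0.03 on the log2 scale. Wnt5a, a Wnt ligand gene, and Myc were not called either, at -0.26 and -0.07, nor was Id2. Wnt5a was called lower in 4 of the alternatives: over the gene interval alone (-0.69), with RLE size factors, with library totals without the top region, and with the 6 libraries alone. Axin2 was called higher over the gene interval alone (0.53).

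The neighbouring genes Igfbp2 and Igfbp5, which encode secreted proteins that bind insulin-like growth factors, gained accessibility. Around both, 7 of 22 distinct tested peaks were called higher (31.8%) and 1 lower (4.55%), beside 15.5% and 12.0% of all peaks. The median log2 fold change was 0.92. Igfbp5 summed to 55.8, 59.7 and 57.7 CPM in the fibroblast libraries and 93.2, 113 and 73.1 CPM at day 7 (log2 fold change 0.69 ± 0.20 SE, adjusted p = 0.0071), and its peak chr1:72913766-72914478 held 0.274, 0.231 and 0.360 CPM in fibroblasts and 3.23, 6.40 and 2.78 CPM at day 7. With flanks of 50000 bases the Igfbp5 call was lost (log2 fold change 0.43, adjusted p = 0.0504). Igfbp2, whose locus overlaps, had an adjusted p of 0.038, and its call was lost without each of the 6 libraries in turn but day 7 library 3, and over the gene interval alone (adjusted p up to 0.49).

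Loci of other cell types that the explants or sorts could hold were read beside these groups. Smooth muscle Myh11 rose: 10 of its 28 tested peaks were called higher and 1 lower, and the sum was 112, 113 and 114 CPM in the fibroblast libraries and 185, 163 and 168 CPM at day 7 (log2 fold change 0.61 ± 0.13 SE, adjusted p = 0.0012). The genes of endothelium (Pecam1, Erg), blood cells (Ptprc, Aif1, Adgre1), epithelium and mesothelium (Krt8, Krt18) and glia (Sox10) together had 19 peaks called higher and 10 lower of 126. Their shares, 15.1% and 7.94%, stood beside 15.5% and 12.0% over all peaks. Of these 8 loci, Pecam1, Aif1 and Krt18 were called higher and Adgre1 lower. Erg was called lower in 3 of the alternatives and Sox10 higher in 2. Summed levels were 264, 271 and 248 CPM in the fibroblast libraries and 259.9, 243 and 279 CPM at day 7 for the endothelial list, 225, 209.8 and 213 CPM in the fibroblast libraries and 246, 243 and 228 CPM at day 7 for the blood list, 81.9, 85.6 and 79.99 CPM in the fibroblast libraries and 96.1, 96.7 and 105 CPM at day 7 for the epithelial list and 41.4, 53.2 and 45.0 CPM in the fibroblast libraries and 61.5, 63.0 and 63.7 CPM at day 7 for Sox10. None of the lists was at 0 in any library. The calls of Pecam1, Aif1 and Adgre1 were each lost without fibroblast library 1, those of Aif1 without fibroblast library 2 and of Adgre1 without day 7 library 3 as well. The part of other cell types in the results above was not tested.

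The strongest peak of each locus was also read on its own. Loci that share one left 60 distinct peaks, of which 20 were called higher and 7 lower (45.0% called). Over all peaks averaging 8 CPM or more over the 18 libraries, 41.6% were called, 36.8% higher and 4.78% lower. Strong peaks were thus called higher far more often than lower whatever the list. Among the matrix genes these peaks split into 2 higher and 4 lower of 13, and among the sarcomere genes into 7 higher and 0 lower of 13.

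Day 7 was also set against the same treatment at days 2, 3, 14 and 21, a contrast without fibroblasts. No peak was called (edgeR, 0 of 144810, 0%), with 9668 peaks (6.68%) at an unadjusted p under 0.05, and DESeq2 called 12 while giving no adjusted p for 137569 peaks. Likewise 0 of 10668 windows and 0 of 62 loci were called, with 1334 and 11 at an unadjusted p under 0.05. A difference that misses the threshold is not shown to be absent. The Myh6 locus averaged 69.1 ± 2.36 in fibroblasts and 169.8 ± 43.2, 215 ± 79.6, 352 ± 20.5, 298 ± 87.1 and 377 ± 85.9 CPM at days 2, 3, 7, 14 and 21 (SD, n = 3 each). Fn1 averaged 483 ± 47.6 in fibroblasts and 157 ± 17.7, 142 ± 42.2, 132 ± 17.8, 116 ± 5.64 and 98.9 ± 8.17 CPM in the same order. The fall at Fn1 stood at all 5 days, while the means of Myh6 were lower at days 2 and 3 than at day 7, with unadjusted p = 0.026 and edgeR adjusted p = 0.36 for day 7 against the other days. Ryr2 averaged 407 ± 50.3 in fibroblasts and 970.2 ± 87.1, 934 ± 83.4, 1293 ± 115, 956 ± 205 and 1155 ± 200.0 CPM, also in that order.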

How the data were processed

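The deposited table holds raw counts of reads per region, as whole numbers, for 18 of the 36 labelled samples; the other 18 were not analysed here. Per the submitters' processing notes, the authors used Bowtie2, Picard, MACS2 and edgeR with the mm9 build; no version or parameter is given there. Regions were kept by edgeR's filterByExpr at a minimum count of 10, scaled by TMM, and tested with edgeR's quasi-likelihood test (version 4.0.16, R 4.3.3) over all 18 libraries with 1 mean per group, which leaves 12 residual degrees of freedom. The second fit used counts summed over 100000-base windows and over gene loci with 20000 bases on either side. P-values were adjusted by Benjamini-Hochberg over all rows of a fit. Each sets a difference between groups against a spread between libraries that was estimated over all 18 libraries, taken as independent. Named peaks are the 10 largest rises and 10 largest falls among called peaks whose groups did not overlap and whose average log2 CPM was 1 or more. Named windows are the 5 largest each way with at least 10 tested peaks. The members and lists were chosen with earlier results of these data known. Gene positions in mm9 came from general knowledge, rounded, not from an annotation. They were checked by distances between genes and promoters within 10 kb, which is partly circular, and 2 of 64 genes were left out. limma 3.58.1 (voom) and DESeq2 1.42.0 were alternatives.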

Additional observations from a re-analysis of the deposited data

How the results depend on the processing

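The named peaks and windows kept their direction and call in all 516 values recomputed for them. They were picked as the largest called changes of the same data, which favours such stability. Of the 35 called loci, 18 kept their call in every setting run for them, up to 15 each. Leaving out 1 library at a time gave 25718 to 34638 called peaks (14954 to 20070 higher, 10764 to 14568 lower), with 57.6 to 58.5% of calls higher. It gave 1139 to 1789 higher and 1680 to 4200 lower windows, 20 to 24 higher and 8 to 9 lower loci, and 0 calls against the other days. Library totals alone gave 8085 lower peaks, 76.2% of calls higher, a median of 0.30 over all peaks, 567 higher and 65 lower windows (median -0.02), 17 higher and 5 lower loci, and 1 peak called against the other days. A minimum count of 30, with 50376 peaks tested, gave 23233 called peaks, 6092 of them lower, 73.8% of calls higher and a median of 0.42. The share of calls that were higher was 50.1% with limma voom, 50.7% with trended offsets, 52.9% with RLE size factors, 52.6% with library totals without the top region, 52.7% with the 6 libraries alone, 53.8% with DESeq2 and 54.9% with no filter, against 56.5%. No filter moved the median over all peaks to -0.30. Calls against the other days numbered 2 with no filter, 1 with library totals without the top region and 12 with DESeq2. At an adjusted p under 0.01, 25152 peaks were called, 10029 of them lower, and 1117 windows were higher and 2013 lower. Windows of 50000 bases gave 3318 higher and 7430 lower, and windows of 200000 bases 1049 and 1906, as their numbers differ by construction. The 6 libraries alone gave 16 lower loci and a window median of -0.32. Counting fibroblast replicates 1 and 2 as 1 sample gave 2361 lower windows. With no flank the Myh7 locus reversed to -0.12. Replicate numbers did not pair the samples: deviations of same-numbered libraries correlated at 0.00861, 0.0195 and 0.0520, and a replicate block gave 38745 called peaks (22115 higher, 16630 lower), 1877 higher and 3676 lower windows, and 26 higher and 9 lower loci. The sums without the Myh6 promoter peak were added after seeing the data. Where a construction does not show it, the cause of these shifts was not tested. Depth limits the weakest peaks: the shallowest library held 2340360 counts.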
